A study of Onthophagus taurus with 60 samples.

Results

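The non-coding transcripts that are well expressed in the epidermis of Onthophagus taurus, a horned dung beetle, are described here. They were the RefSeq models of the deposited transcript table whose identifier starts with XR_, the prefix of predicted non-coding RNAs, and whose mean level reached 10 CPM in at least 1 of 8 tissues. CPM is the count of a transcript per mega-count of its column total. Of 2057 non-coding models 127 met this rule (6.17%), and 149 were at 0 in every column. The whole table held 23725 models. Of its 21668 coding models, whose identifiers start with XM_, 6110 reached the same level (28.2%). Because the level in the highest tissue chose the 127 members, levels and patterns are given as a description. A p-value for a difference between a pair of tissues is printed only where a tissue outside that pair also reaches 10 CPM and so makes the transcript a member by itself. Other differences stand without a test.

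All libraries came from male prepupae, the last larval stage, in which the epidermis forms the shape of the pupa. The 8 groups were the T2 wing, the dorsal head, the support structures, which project on both sides of abdominal segments, and 5 parts of the T1 segment or prothorax, namely its carinated, posterior and anterior margin, the thoracic horn and the dorso-central epidermis, called dorsal prothorax here. No group was treated and no strain or genotype is named. Each tissue had 6 biological replicates, and left and right samples of the wing and of the carinated margin were sequenced separately from the same individuals and are summed here, which gave 48 libraries. Dorsal prothorax and dorsal head served the study as contrasts without a published relation to wings.

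Non-coding RNAs act without being translated. Ribosomal RNA forms the core of the ribosome and is the most abundant RNA of a cell, although it lacks a poly(A) tail and is largely lost when libraries are made from poly(A) RNA, as these were. Long non-coding RNAs (lncRNAs) are spliced and often polyadenylated like messenger RNAs, tend to be expressed in fewer tissues than coding genes, and in insects include regulators of dosage compensation and of Hox genes. An XR_ model can also be a transcript of a coding gene that lacks a usable reading frame, for example because an exon was skipped. No sequence of these models was used here.

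Library totals in mega-counts (M) were 74.83 to 87.27 M in the head, 28.53 to 37.86 M in the wing and carinated margin, and 13.11 to 21.41 M in the other 5 tissues. Head tissue and library depth cannot be told apart. Levels below are TMM-scaled CPM unless stated. TMM scales each library so that most transcripts have similar levels, and its factors were 0.5315 to 0.6393 in the horn and 0.8146 to 1.415 elsewhere, so that the horn stands higher on this scale than in its share of counts. CPM is not corrected for transcript length, so an order of transcripts by CPM also reflects their length, and levels are compared between tissues. None of 36 marker symbols for muscle, haemocytes, trachea, nervous tissue, fat body and epidermis was found in the gene table, so neither the labelled tissues nor admixed cell types could be checked. In bulk tissue, fewer cells of a type and less RNA per cell cannot be told apart.

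A gene of the RefSeq gene table (assembly IU_Otau_3.0) was matched to 36 members (28.3%), against 80.9% of the coding models at the same level. Of these, 18 members belonged to 17 lncRNA genes, 17 were non-coding models of 13 protein-coding genes, and XR_002707260.1 (LOC111421936) was the only member of an rRNA gene. The other 91 members matched no gene, and nothing is said of their kind. Of 12 non-coding models matched to rRNA genes 1 was a member, and none of 35 small nuclear RNA models, which belong to the splicing machinery, nor of 17 small nucleolar RNA models, which guide rRNA modification, reached the level. None of 16 symbols of known non-coding RNA families was found in the gene table. Nearly all its symbols are LOC numbers, so absence of these families cannot be read from this. The table lists 40 small nuclear and 18 small nucleolar RNA genes by type. The median level of members in their highest tissue was 24.5 CPM of column total (quartiles 14.0 and 51.6), and 21 members (16.5%) reached at least 100 CPM. Just inside the threshold were XR_002707582.1 at 10.01 CPM in the head and XR_002706883.1, which had 10.07 CPM in the dorsal prothorax. Just outside it were XR_002706459.1 with 9.975 CPM and XR_002706674.1 with 9.78 CPM, both highest in the dorsal prothorax.

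The rRNA model and 4 members that varied with it held most of the signal. Over the 48 libraries log2 levels of XR_002707010.1, XR_002707011.1, XR_002707008.1 and XR_002707268.1 correlated with XR_002707260.1 at r = 0.959 to 0.996, and the next member at r = 0.642. The 4 models matched no gene, no sequence was used, and whether they are rRNA was not examined. The libraries share their depth and scaling, and the group was formed after these values were seen. These 5 transcripts carried 84.9% of all counts of the 127 members.

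As a share of all counts, the 5 transcripts ranged over the 6 libraries from 2.07 to 7.7% in the dorsal prothorax (median 3.43%) and from 1.31 to 5.67% in the horn (median 2.42%). They ranged from 0.828 to 2.07% in the wing (median 1.31%), from 0.535 to 1.77% in the support structures (median 0.806%) and from 1.08 to 2.09% in the head (median 1.37%). Ranges of tissues thus mostly overlapped, and the spread between replicates was wide. Replicate numbers paired the libraries of all tissues except the head. Within replicate numbers the share was higher in the dorsal prothorax than in each of the other paired tissues in 6 of 6 replicates, with ratios from 1.12 to 1.77 against the horn and from 2.89 to 8.47 against the support structures. Replicate 1 had the highest share in 5 of the 8 tissues and replicate 5 the lowest in 4. Both counts include the head, whose replicate numbers pair with no other tissue.

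Levels of XR_002707260.1 itself ran from 6728 to 26510 CPM in the horn (median 11310), from 3749 to 13010 in the dorsal prothorax (median 6211) and from 1890 to 5392 in the wing (median 2842). Horn and wing libraries did not overlap, and the dorsal prothorax overlapped both. The log2 difference of horn and wing was 2.15 ± 0.40 (SE, n = 6, adjusted p = 2.7e-05, edgeR quasi-likelihood test), that of wing and dorsal prothorax was -1.28 ± 0.39 (adjusted p = 0.012), and that of horn and dorsal prothorax was 0.87 ± 0.39 and did not pass the threshold (adjusted p = 0.081). With the replicate number as a block in the 7 paired tissues the last was 0.82 ± 0.23 and passed (adjusted p = 0.0048), and the horn was higher in 6 of 6 replicates. Of the other 4 transcripts XR_002707010.1 also passed with the block, at 0.77 ± 0.23 (adjusted p = 0.0072), and the other 3 did not (adjusted p = 0.055 to 0.2). The order of horn and dorsal prothorax depends on the scale, since the horn was higher in TMM-scaled CPM and lower in the share of all counts. Between support structures and dorsal prothorax the 5 transcripts fell by 1.65 to 2.06 on the log2 scale, and all 5 changes passed the threshold.

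**Figure D1:**
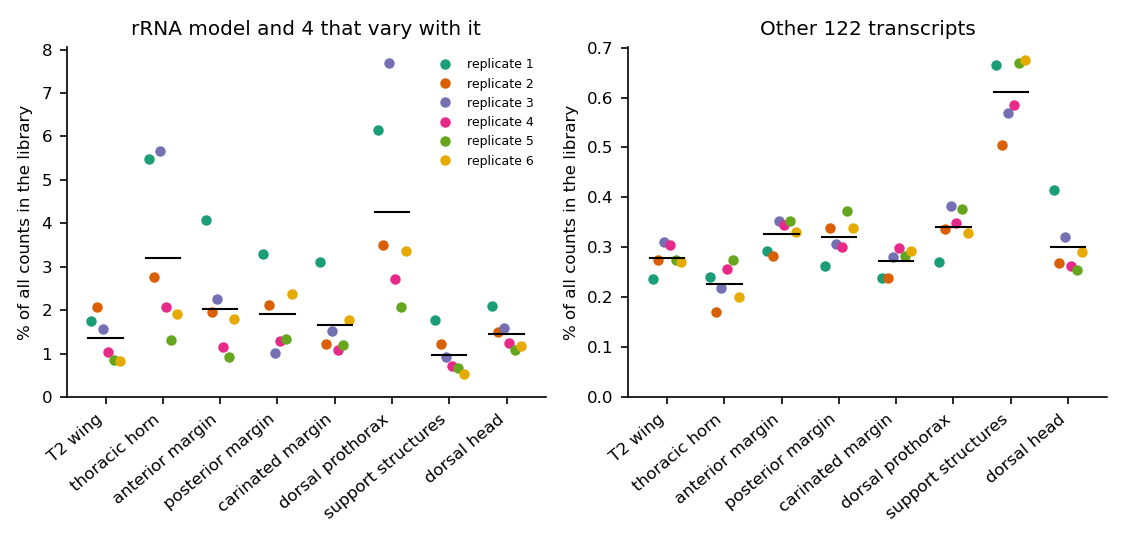
Share of all counts of a library (%, y axis) held by the rRNA model and the 4 members that vary with it (left) and by the other 122 members (right) in 8 tissues. Points are libraries coloured by replicate number and lines are means over 6 libraries. The left share is highest in the dorsal prothorax, from 2.07 to 7.7%, and the right share in the support structures, from 0.505 to 0.676%.

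The other 122 members made up a small and steadier share of the libraries. In the support structures they held 0.505 to 0.676% of counts, above every library of the other 7 tissues, which lay between 0.171 and 0.414%. The horn had 0.171 to 0.274% (median 0.229%), and the dorsal prothorax had 0.27 to 0.382% (median 0.343%). XR_002706416.1, a model of the lncRNA gene LOC111415616 described below, was the most abundant of the 122 in the support structures. Its mean there was 2697 CPM of column total, against 621.4 CPM in the horn, its next highest tissue. The share above includes this transcript, and the share without it was not computed. The excess in the support structures is thus not read as a trait of the 122 members.

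Non-coding members were more uneven across tissues than coding models that passed the same rule. The tau index, which is 0 for equal log2 levels in all tissues and 1 for a transcript found in a single tissue, had a median of 0.26 in members (quartiles 0.168 and 0.358) and of 0.137 in coding models (0.0845 and 0.236). The median ratio of the highest to the lowest tissue was 5.76 in members and 2.53 in coding models. A level of 10 CPM was reached in all 8 tissues by 25 members (19.7%) and 2593 coding models (42.4%), and in a single tissue by 37 members (29.1%) and 891 coding models (14.6%). Replicates of members also spread more widely, with a median coefficient of variation within tissues of 43.3% against 22.1%.

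Part of the members' counts was divided between similar models by the authors' counting, since 61.7% of member values were not whole, against 47.0% of coding values. Among models with under 5% of values that were not whole, the 38 members had a median tau of 0.262 and a median coefficient of variation of 35.1%, and the 2732 coding models 0.123 and 15%. The part of this division in the values of all members was not tested. The classes of members resembled each other in tau, with medians of 0.276 in the 18 lncRNA models, 0.24 in the 17 models of coding genes and 0.26 in the 91 without a gene. These are descriptions of selected transcripts, and no test was made of them.

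**Figure D2:**
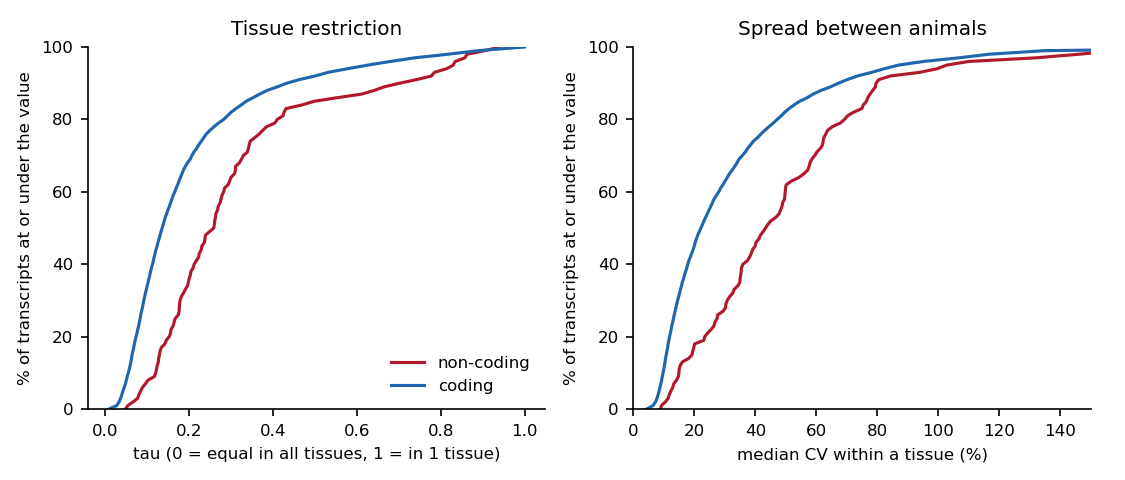
Cumulative share of transcripts (%, y axis) against the tau index of tissue restriction (left, no unit) and the median coefficient of variation among the 6 libraries of a tissue (right, %), for 127 non-coding and 6110 coding models that reached 10 CPM. The non-coding curve lies to the right of the coding curve over most of both ranges, with medians of 0.26 against 0.137 and of 43.3% against 22.1%.

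On the TMM scale the highest tissue of a member was the dorsal prothorax for 37, the horn for 27, the support structures for 24, the head for 23, the anterior margin for 7, the wing for 6, the posterior margin for 2 and the carinated margin for 1. The dorsal prothorax was the highest tissue of 29.1% of members and of 16.9% of coding models, and the wing of 4.72% and 12.2%. Counting by share of column total moved these numbers to 52 for the dorsal prothorax, 7 for the horn and 8 for the wing. The lowest tissue was the head for 42 members (33.1%, coding models 24.2%) and the horn for 28 (22.0%, coding models 22.4%). By share of column total the order turned, with the horn lowest for 52 (40.9%, coding models 60.6%) and the head for 47 (37.0%, coding models 19.9%).

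**Figure D3:**
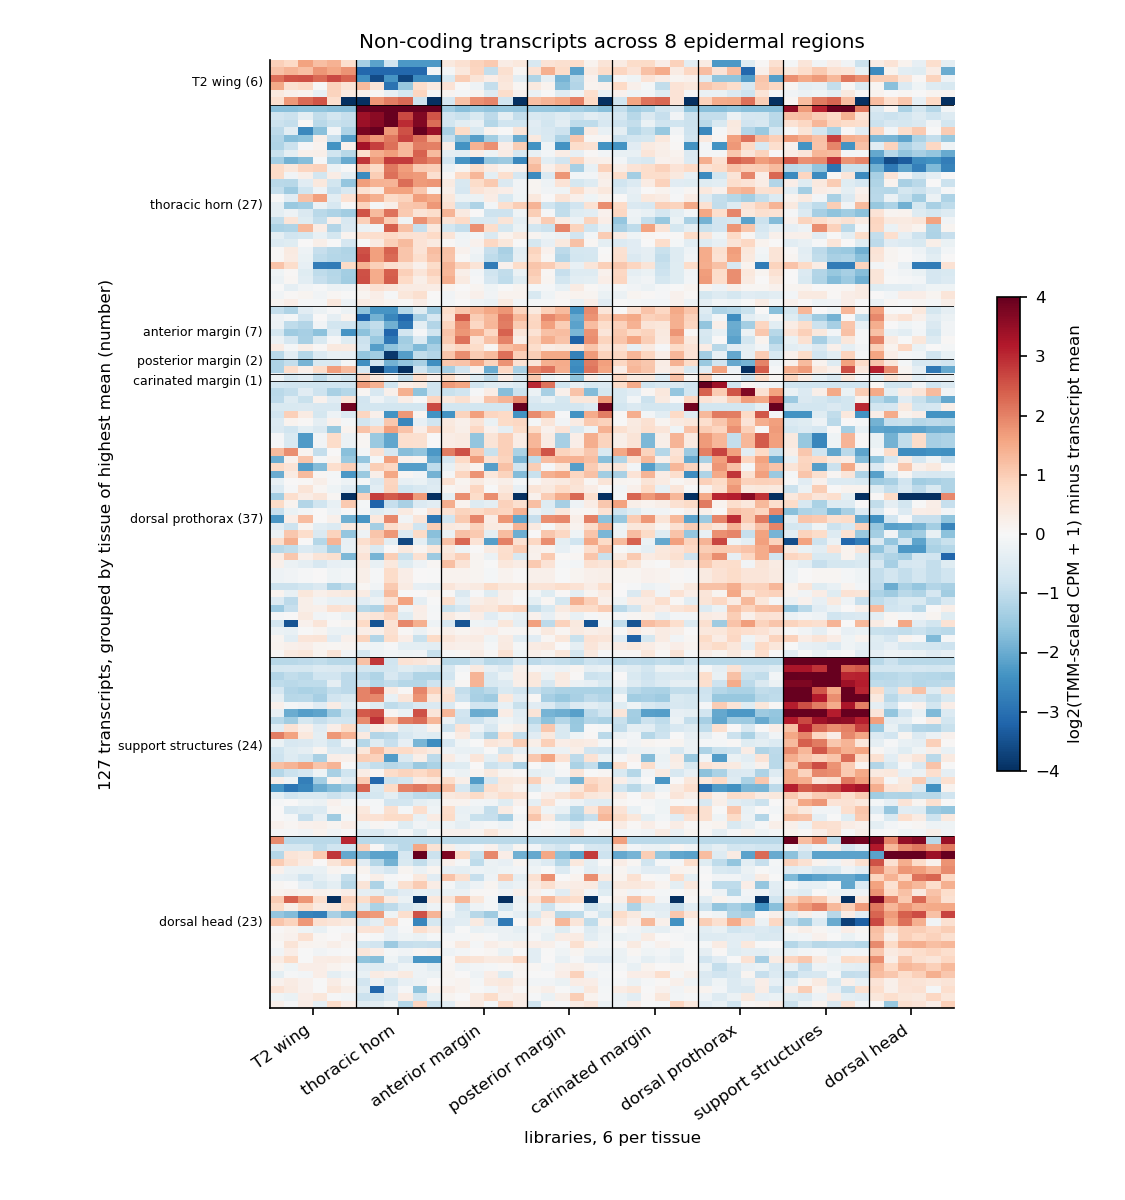
Levels of the 127 members (1 line each, grouped by the tissue of the highest mean) in 48 libraries (columns, replicate 1 to 6 from left to right in each tissue), as log2(TMM-scaled CPM + 1) minus the mean of the transcript over all libraries. Blocks of high values appear in the support structures (24 members) and the horn (27 members), and some lines rise or fall in the same replicate of several tissues.

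The count of members called between tissues includes the tissue that made each a member. All 127 passed the filter on low counts. Of them 96 (75.6%) were called between any of the 8 tissues at an adjusted p under 0.05, beside 62.4% of all 15239 transcripts tested and 82.1% of the coding models at the same level. XR_002706757.1 had the lowest tau of all, 0.049, and its tissue medians lay between 9.072 and 11.09 CPM. It was not called between tissues. XR_002707148.1, a model of the protein-coding gene LOC111420987, was nearly as even, yet its dorsal prothorax libraries (21.99 to 26.86 CPM) lay under all wing libraries (33.12 to 39.65 CPM).

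The dorsal prothorax libraries enter 4 of the 5 pairwise comparisons below, which are therefore not independent of each other. Counts, percentages and median log2 differences over all 127 members include those that passed the rule only through a tissue of the pair. Nothing is read from them. Median differences and counts of members without overlap are given over all 127 members only. Percentages of coding models at the same level were not restricted either. Beside each count of called members stands the count over members that reached 10 CPM in a tissue outside the pair. These are 109 members for horn against dorsal prothorax, 110 for wing against dorsal prothorax, 123 for horn against wing, 99 for support structures against dorsal prothorax and 108 for head against dorsal prothorax. The members named in each comparison were the largest called differences whose libraries did not overlap.

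Between the thoracic horn and the dorsal prothorax 59 members were called, 26 higher and 33 lower in the horn, which is 46.5% of members beside 32.8% of all transcripts tested and 47% of coding models at the same level. Of the 109 members that qualify through another tissue 49 changed (45.0%), 23 higher and 26 lower. The median log2 difference was -0.14 over members and -0.18 over all transcripts. With total counts in place of TMM 89 members were called, 12 higher and 77 lower. Libraries of the 2 tissues did not overlap in 17 members that were higher and 6 that were lower, beside 12.3% of all transcripts. The largest rises without overlap were those of XR_002708027.1, XR_002707541.1, XR_002708060.1, XR_002707539.1 and XR_002707542.1, none matched to a gene. The largest falls without overlap were those of XR_002706382.1, XR_002706513.1, XR_002706685.1, XR_002706905.1 and XR_002707988.1.

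XR_002708027.1 was nearly absent from the wing and the dorsal prothorax and clearly present in the horn. Its levels ran from 50.08 to 388.8 CPM in the horn (median 69.62), from 9.21 to 49.48 CPM in the support structures (median 30.8) and from 0.3055 to 2.363 CPM in the head (median 0.998). All horn libraries were above all support structure libraries, and these were above all others. The dorsal prothorax held 1 count over its 6 libraries and the horn 7387, a ratio of 15600 with a 95% counting interval from 2790 to 615000 (adjusted p = 1.3e-14). The interval covers counting error only. Against the wing, which held 2 counts, the ratio was 15700 (4350 to 130000, adjusted p = 1.6e-15).

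XR_002708060.1 and XR_002708059.1, whose identifiers follow each other, had their highest level in the horn as well. XR_002708060.1 ran from 12.81 to 37.24 CPM in the horn (median 26.4), from 2.53 to 5.258 CPM in the support structures (median 4.118), and no library of the other 6 tissues exceeded 1.186 CPM. Its libraries of the horn and of any other tissue did not overlap. The log2 difference to the dorsal prothorax was 5.78 ± 0.49 (SE, n = 6). For XR_002708059.1 the horn range was 12.81 to 52.28 CPM, and the difference to the wing was 5.35 ± 0.48. Both are members through the horn alone, so these values carry no test.

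Among the members lower in the horn, XR_002706905.1 ran from 37.86 to 78.23 CPM there (median 67.67) and from 114.3 to 215.5 CPM in the dorsal prothorax (median 122.9), with a log2 difference of -1.15 ± 0.27 (SE, n = 6, adjusted p = 0.00067). XR_002707988.1, a model of the lncRNA gene LOC111427843, ran from 36.29 to 61.34 CPM in the horn and from 75.81 to 137.2 CPM in the dorsal prothorax. It fell by 1.01 on the log2 scale (SE 0.14, adjusted p = 1.4e-07). XR_002706685.1 had horn levels of 3.231 to 5.968 CPM and dorsal prothorax levels of 9.624 to 14.3 CPM and fell by 1.51 (SE 0.15, adjusted p = 3.1e-11). In these 3 members the 2 tissues were separate in every library. XR_002706513.1, a model of the protein-coding gene LOC111416266, fell by 2.07 (SE 0.56, adjusted p = 0.0035).

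Between the T2 wing and the dorsal prothorax 50 members were called, 34 lower and 16 higher in the wing. The 50 are 39.4% of members, beside 25.9% of all transcripts tested and 39.3% of coding models at the same level. Lower in the wing were 26.8% of all 127 members and 18.9% of these coding models. Neither set was restricted to transcripts that qualify through another tissue. Of the 110 members that qualify through another tissue 41 changed (37.3%), 16 higher and 25 lower. The median log2 difference was -0.45 over members and 0.01 over all transcripts. Libraries did not overlap in 9 higher and 15 lower members, beside 14.2% of all transcripts. XR_002706382.1, XR_002707102.1, XR_002706455.1, XR_002706335.1 and XR_002706867.1 showed the largest rises without overlap, from 0.80 to 3.05 on the log2 scale.

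XR_002706382.1, which matched no gene, was the most strongly wing-weighted of the 10 members with the highest level. It ran from 498.4 to 686.7 CPM in the wing (median 593.2), from 266.1 to 466.7 in the support structures (median 372.9), from 22.45 to 233.5 in the dorsal prothorax (median 34.54) and from 7.532 to 20.41 in the horn (median 17.75). Wing libraries were above those of every other tissue, and horn libraries were below them all. The rise from dorsal prothorax to wing was 3.05 ± 0.42 on the log2 scale (SE, n = 6, adjusted p = 3.8e-07). Replicate 5 set the top of the dorsal prothorax range. Without replicate 5 of every tissue the rise was 3.89 (adjusted p = 2.2e-09), and the fall from dorsal prothorax to horn was 1.41 (value -1.41, adjusted p = 0.0018) in place of 2.23 (value -2.23, adjusted p = 3.2e-05).

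XR_002707102.1 ran from 36.12 to 51.92 CPM in the wing (median 46.4), from 4.897 to 16.12 in the dorsal prothorax (median 9.292) and from 77.98 to 135.8 in the head (median 89.87). In the support structures its mean was 91.65 CPM, near that of the head at 96.93 CPM. By share of column total the support structures were highest, at 97.51 CPM against 85.28 CPM in the head. Wing and head were each above the dorsal prothorax in every library. The log2 differences were 2.18 ± 0.22 for the wing (adjusted p = 3.2e-10) and 3.28 ± 0.23 for the head (adjusted p = 3e-15). XR_002706426.1 showed the reverse, from 39.03 to 61.79 CPM in the wing (median 50.42) and from 173.6 to 255.1 CPM in the dorsal prothorax (median 208.4). It fell by 2.05 (SE 0.18, adjusted p = 1.1e-11), and XR_002706905.1 fell by 2.13 (SE 0.27, adjusted p = 7.8e-08). The largest falls without overlap were those of XR_002707174.1 and XR_002707649.1, described below. XR_002706443.1, picked out after its values were seen, had the largest fitted fall with overlap. It had 1 count in the wing and 925 in the dorsal prothorax, its only tissue over 10 CPM, where replicate 1 reached 34.57 CPM and replicate 3 was at 0, so that the 2 tissues overlapped.

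Between the horn and the wing 63 members were called, 40 higher and 23 lower in the horn. They are 49.6% of members, beside 39.3% of all transcripts tested and 52.4% of coding models at the same level. Among those coding models 26.3% were higher and 26.2% lower, against 31.5% and 18.1% of all 127 members. This split depends on the scale. With RLE size factors it was 48 higher and 16 lower, and with total counts 24 higher and 57 lower among 81 called. Libraries did not overlap in 28 higher and 14 lower members, beside 22.5% of all transcripts. Of the 123 members that qualify through another tissue 59 changed (48%), 37 higher and 22 lower. The median log2 difference was 0.27 over members and -0.13 over all transcripts.

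XR_002707775.1, a model of the protein-coding gene LOC111426038, ran from 18.74 to 165.8 CPM in the horn (median 73.09), from 0 to 4.523 CPM in the wing (median 1.715) and from 0 to 6.574 CPM in the dorsal prothorax (median 2.172). The horn was above every library of the other tissues. The log2 difference to the wing was 5.25 ± 0.77 (SE, n = 6), with no test, since the horn alone made it a member. Its share of the gene's counts is given below.

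XR_002707649.1 was high in the dorsal prothorax, in the support structures and in the horn and low in the wing, the head and the anterior margin. Its means were 7.888 CPM in the anterior, 24.78 CPM in the carinated and 36.15 CPM in the posterior margin. It ran from 98.75 to 215.6 CPM in the horn (median 172.4), from 102.9 to 212.8 in the support structures (median 112.1), from 44.44 to 154.8 in the dorsal prothorax (median 100.1), from 6.305 to 27.52 in the wing (median 9.367) and from 1.46 to 4.582 in the head (median 3.499). The horn and dorsal prothorax overlapped, and the wing and head lay below both. The wing fell by 3.13 against the dorsal prothorax (SE 0.39, adjusted p = 5.9e-08), and the head fell by 5.00 (SE 0.43, adjusted p = 1.2e-12).

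The largest falls from wing to horn without overlap were those of XR_002706382.1 (log2 difference -5.29 ± 0.47, adjusted p = 2e-12), XR_002706553.1, XR_002706796.1, XR_002706842.1 and XR_002706455.1. XR_002706842.1 ran from 2.109 to 4.137 CPM in the horn and from 7.684 to 25.88 CPM in the wing. It fell by 2.59 (SE 0.44, adjusted p = 5.3e-06). XR_002706455.1 fell by 1.95 (SE 0.44, adjusted p = 0.00035). XR_002706553.1 and XR_002706796.1 are models of coding genes and are taken up with the isoform shares.

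Between the support structures and the dorsal prothorax 65 members were called, 34 higher and 31 lower, which is 51.2% of members beside 32.1% of all transcripts tested and 47.6% of coding models at the same level. Of the 99 members that qualify through another tissue 42 changed (42.4%), 21 higher and 21 lower. The median log2 difference was 0.08 over members and -0.04 over all transcripts. Libraries did not overlap in 26 higher and 20 lower members, beside 17.4% of all transcripts. The largest rises without overlap were those of XR_002707541.1, XR_002708027.1, XR_002707547.1, XR_002707545.1 and XR_002707542.1. Of these, 4 have identifiers within a short run of the numbering, XR_002707539 to XR_002707547, in which 5 of 9 models in the table were members.

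XR_002707541.1 ran from 54.28 to 172.0 CPM in the support structures (median 92.8) and from 0.2387 to 14.4 CPM in the horn (median 2.118). It had no count in any dorsal prothorax library, and no library of the remaining 5 tissues exceeded 0.3599 CPM. The support structures were above every other library. Against 3 counts over the 6 dorsal prothorax libraries the level was at least 3847-fold higher in the support structures, the tissue that made it a member, and at least 155.9-fold higher in the horn (adjusted p = 1e-06).

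XR_002707547.1 ran from 43.07 to 691.1 CPM in the support structures (median 288.8), from 3.155 to 28.81 CPM in the horn (median 15.88) and from 0 to 1.896 CPM in the dorsal prothorax (median 0.4554). The support structures and the dorsal prothorax did not overlap, and the spread among the support structures was itself wide. The log2 difference was 9.08 ± 1.31 (SE, n = 6). For XR_002707545.1 and XR_002707542.1 it was 8.29 ± 1.13 and 7.94 ± 1.12. These 3 are members through the support structures alone, so the values carry no test. Log2 levels of the 5 members of this run correlated with each other over the 48 libraries at r = 0.859 to 0.987. The models matched no gene, their share of reads with each other is unknown, and the libraries share depth and scaling.

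XR_002706416.1, a model of the lncRNA gene LOC111415616, had the highest CPM of the 122 members outside the group of 5. It ran from 1800 to 3434 CPM in the support structures (median 2556), from 221.8 to 1699 in the horn (median 1271), from 42.72 to 162.7 in the dorsal prothorax (median 80.21) and from 45.11 to 124.4 in the wing (median 74.39). The support structures were above every other library. The horn was above the wing and the dorsal prothorax, which overlapped each other. The log2 differences to the dorsal prothorax were 4.88 ± 0.52 for the support structures (SE, n = 6, adjusted p = 3.7e-10), 3.64 ± 0.49 for the horn (adjusted p = 8.8e-08), 2.29 ± 0.46 for the head (adjusted p = 7.4e-05) and -0.14 ± 0.44 for the wing (adjusted p = 0.87).

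The largest falls without overlap in the support structures were from 2.44 to 2.65 on the log2 scale, in XR_002707700.1, XR_002707531.1, XR_002706338.1, XR_002707827.1 and XR_002706336.1. XR_002706336.1, a model of the lncRNA gene LOC111415048, ran from 3.205 to 8.948 CPM in the support structures (median 5.068) and from 13.81 to 54.07 CPM in the dorsal prothorax (median 27.23), and it fell by 2.44 (SE 0.27, adjusted p = 1.5e-09). XR_002707827.1 ran from 0.517 to 5.388 CPM and from 16.5 to 27.3 CPM, and it fell by 2.45 (SE 0.39, adjusted p = 2.2e-06). In both the tissues were separate in every library.

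Between the dorsal head and the dorsal prothorax 80 members were called, the most of the 5 comparisons, with 32 higher and 48 lower in the head. They are 63% of members, beside 44.6% of all transcripts tested and 57.8% of coding models at the same level. Lower in the head were 37.8% of all 127 members and 27.5% of coding models, again without restriction to those that qualify through another tissue. Of the 108 members that qualify through another tissue 65 changed (60.2%), 28 higher and 37 lower. The median log2 difference was -0.53 over members and 0.05 over all transcripts. With total counts the split was 20 higher and 58 lower. Libraries did not overlap in 20 higher and 26 lower members, beside 26.1% of all transcripts. The head libraries were the deepest, and the part of depth in these counts was not tested.

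XR_002707582.1, a model of the lncRNA gene LOC111424151, ran from 5.77 to 23.88 CPM in the head (median 10.05) and from 0.5762 to 1.159 CPM in the dorsal prothorax (median 0.6963). The tissues did not overlap, and the log2 difference was 3.91 ± 0.45 (SE, n = 6), with no test, since the head alone made it a member. XR_002708029.1, a model of the lncRNA gene LOC111428029, ran from 218.9 to 638.3 CPM in the head (median 498.9), from 86.66 to 571.9 in the horn (median 285.2), from 37.61 to 110.9 in the dorsal prothorax (median 90.25) and from 13.75 to 39.06 in the wing (median 27.43). Head and horn overlapped, and the wing overlapped the dorsal prothorax only at its upper end. The head rose by 2.57 ± 0.37 over the dorsal prothorax (adjusted p = 2.5e-07) and the horn by 1.88 ± 0.36 (adjusted p = 5.8e-05).

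XR_002707026.1 ran from 0.5011 to 0.7173 CPM in the head (median 0.5325) and from 5.974 to 22.95 CPM in the dorsal prothorax (median 12.28). The log2 difference was -4.61 ± 0.38 and was not tested, as the dorsal prothorax made it a member. XR_002707827.1 fell by 3.92 in the head (SE 0.41, adjusted p = 1.9e-10). Both were separate in every library. The rise of XR_002707677.1 in the head was 2.81 ± 1.13 (adjusted p = 0.04). Of the 50 differences named for lack of overlap, all picked by their calls in these data, it alone lost its call under any alternative. It missed the threshold under 7 of the alternatives run, with an adjusted p of 0.2 without replicate 1.

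Most members restricted to a tissue, like most such coding models, were highest in the support structures or the horn. On the TMM scale a mean at least 3 times that of the next tissue was found in 18 members (14.2%) and in 425 coding models (6.96%). Of the 18 members 9 were highest in the support structures (50%, coding models 58.1%), 5 in the horn (27.8%, coding models 25.2%), 3 in the head (16.7%, coding models 8.0%) and 1 in the dorsal prothorax (5.56%, coding models 2.35%). The wing and the 3 margins of the prothorax held 0 of the 18 and 27 of the 425 coding models (6.35%). The difference between the 2 sets was not tested. By share of column total some of the 18 fell under 3 times the next tissue. These were XR_002708027.1 (77.6 CPM against 32.01 CPM), XR_002707794.1 (15.15 against 10.37) and XR_002706251.1 (19.41 against 6.752). The others stayed above it. XR_002707794.1, restricted to the horn on the TMM scale, was not called between any tissues. The 5 members with the highest tau, from 0.857 to 0.941, were XR_002707541.1, XR_002706450.1, XR_002706449.1, XR_002708027.1 and XR_002707219.1.

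XR_002706449.1 and XR_002706450.1 belong to the lncRNA genes LOC111415861 and LOC111415864, which are adjacent in the gene table. XR_002706449.1 ran from 18.13 to 79.2 CPM in the support structures (median 35.82) and from 0.1614 to 4.218 CPM in the dorsal prothorax (median 0.9823), and in the wing, horn and head it did not exceed 0.4775 CPM. XR_002706450.1 ran from 7.55 to 32.31 CPM in the support structures (median 13.33) and reached at most 1.479 CPM elsewhere. Both were above all other libraries in the support structures, and their log2 levels correlated at r = 0.98 over the 48 libraries. Whether the 2 models are parts of a single transcript was not tested. XR_002707219.1, of the lncRNA gene LOC111421587, ran from 18.46 to 38.21 CPM in the support structures and reached at most 5.149 CPM elsewhere, with a log2 difference to the dorsal prothorax of 4.17 ± 0.76 (SE, n = 6). It is a member through the support structures alone, and no test is given.

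XR_002707174.1 was the only member restricted to the dorsal prothorax. It ran from 6.189 to 60.57 CPM there (median 18.35), from 0.5549 to 11.6 CPM in the horn (median 3.046) and from 0.9172 to 2.471 CPM in the wing (median 1.355). The wing and the dorsal prothorax did not overlap (log2 difference -3.94 ± 0.69, no test, since the dorsal prothorax made it a member), whereas the horn overlapped the dorsal prothorax. In the head, XR_002706251.1 ran from 14.99 to 26.75 CPM (median 23.27) and no library of another tissue exceeded 7.241 CPM. XR_002706259.1 also had its highest mean in the head but ranged there from 0 to 189.2 CPM (median 86.33) and reached 88.23 CPM in a horn library.

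**Figure D4:**
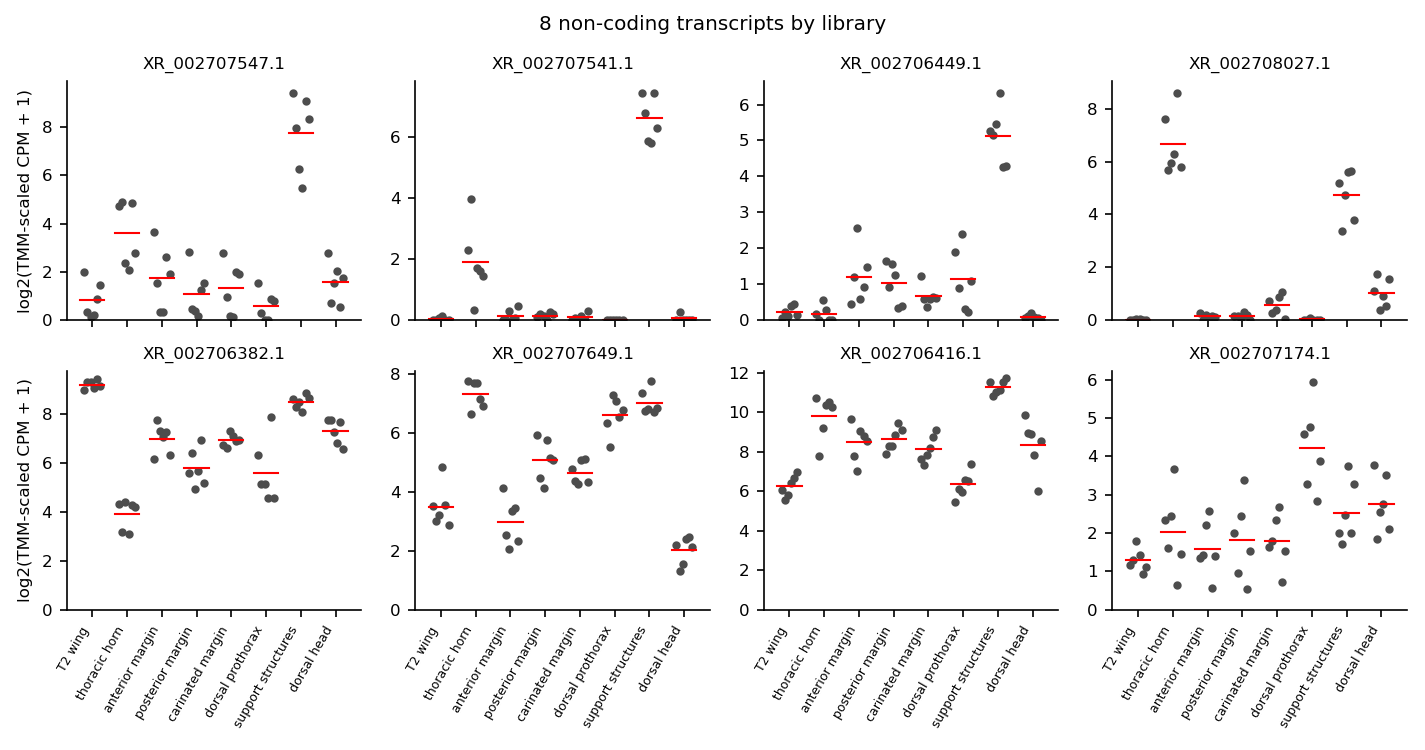
Levels of 8 members, as log2(TMM-scaled CPM + 1) on the y axis, in the 6 libraries of each of 8 tissues. Points are libraries and red lines are means, and the y axes differ. XR_002707547.1, XR_002707541.1, XR_002706449.1 and XR_002706416.1 are highest in the support structures, XR_002708027.1 in the horn, XR_002706382.1 in the wing and XR_002707174.1 in the dorsal prothorax, while XR_002707649.1 is lowest in the head.

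Of the 10 members whose highest tissue was a margin of the prothorax, 7 had neighbouring identifiers. The identifiers XR_002707991 to XR_002708002 hold 12 models of the table, and the 7 of these that were members were highest in the anterior margin or, for XR_002708002.1, the posterior margin. For 6 of them the lowest tissue was the horn, and for XR_002707992.1 it was the wing. XR_002707996.1 ran from 121.6 to 289.6 CPM in the anterior margin (median 144.9), from 8.711 to 206.1 in the posterior margin (median 153.2), from 76.05 to 159.0 in the carinated margin (median 113.0) and from 3.342 to 30.85 in the horn (median 21.96). The 3 margins overlapped each other, and the anterior and carinated margins were above the horn in every library. Log2 levels of the 7 correlated at r = 0.72 to 0.944. None matched a gene, and whether they share reads is not known.

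Non-coding models of coding genes were examined for their share of the gene's counts. The rule did not use the share, but it used the member's own counts, which are its numerator. Of the members 19 lay in genes with at least 2 tested models. In the horn against the dorsal prothorax 2 of the 19 changed their share, beside 2.81% of all transcripts tested for share, and in the horn against the wing 2 did, beside 3.32%. Of the latter 2, XR_002706796.1 is a member through the wing alone, so its call there carries no test. In the wing against the dorsal prothorax the edgeR test called 0 of the 19, beside 1.7%. The log2 change of XR_002706796.1 relative to its gene was 1.16 there and likewise carries no test.

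The called members were the same pair in both comparisons, and their shares were lower in the horn. XR_002706553.1, of LOC111416498, a gene with 1 coding and 1 non-coding model in the table, made up 11.4 to 19.3% of the gene's counts in the wing (median 16%) and 0 to 26.7% in the dorsal prothorax (median 17.8%). In the horn it was at 0 in all libraries but 1, which reached 17.1%, so that the horn overlapped the wing through that library alone. The dorsal prothorax also held a library at 0. The log2 change relative to the gene was -1.78 for horn against dorsal prothorax (adjusted p = 0.013) and -1.80 for horn against wing (adjusted p = 0.01). The level of XR_002706553.1 fell by 4.35 from wing to horn (SE 0.94, adjusted p = 0.00021). It was also called without replicate 6, which leaves no count in the horn (adjusted p = 2.5e-07).

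XR_002706796.1, of LOC111418266, a gene with 4 coding models and 1 non-coding model, made up 12.5 to 23.3% of the gene's counts in the wing (median 16.8%), 0 to 11.6% in the dorsal prothorax (median 5.72%) and 0 to 4.19% in the horn (median 0.069%). Horn and wing were separate, and horn and dorsal prothorax overlapped. The log2 change relative to the gene was -1.70 for horn against dorsal prothorax (adjusted p = 0.016). For horn against wing it was -2.86 and is given as a description, since the wing alone, at 11.32 CPM, made this model a member. The counts of both genes were fewest in the horn libraries, from 254 for LOC111416498 and from 384 for LOC111418266. For horn against dorsal prothorax 1 member was called without replicate 1, 2, 3, 4 or 6 and 0 without replicate 5. For horn against wing 1 was called without replicate 1, 2, 3 or 5 and 2 without replicate 4 or 6. The counts for horn against wing are over all members tested for share, among them XR_002706796.1, which carries no test there. How the counting divided reads among models of a gene limits these shares.

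**Figure D5:**
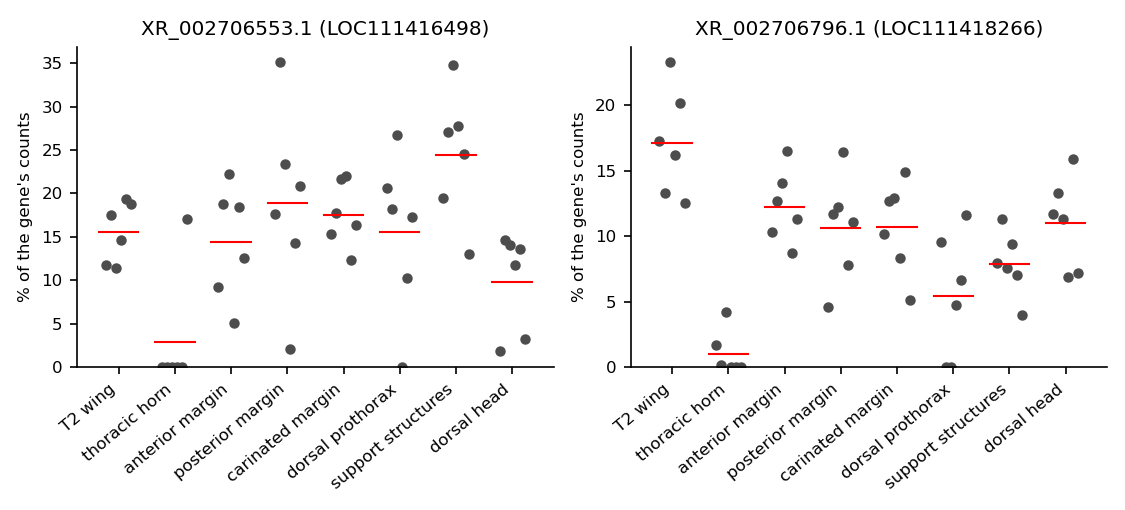
Share of the gene's counts (%, y axis) taken by the non-coding models XR_002706553.1 (left) and XR_002706796.1 (right) in the 6 libraries of 8 tissues. Points are libraries and red lines are means. The horn libraries are at or near 0, except for a library at 17.1% on the left and libraries up to 4.19% on the right.

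The other 17 members tested for share were not called in any of the 3 comparisons. XR_002706301.1 made up 58.3 to 65.1% of LOC111414768 as a mean of each tissue, and XR_002707790.1 made up 48.7 to 55.6% of LOC111426155. The genes LOC111426155 and LOC111426038 are adjacent and held 4 members, XR_002707790.1, XR_002707792.1, XR_002707794.1 and XR_002707775.1. All had their highest TMM-scaled mean in the horn, but XR_002707792.1 and XR_002707794.1 were not called between any tissues. By share of column total XR_002707792.1 was highest in the dorsal prothorax, at 13.55 CPM against 7.929 CPM in the horn. XR_002707775.1 made up 11.8 to 17.3% of its gene as a mean of each tissue, and the change of its share between horn and dorsal prothorax was 0.33 on the log2 scale (adjusted p = 1). Of the lncRNA genes LOC111418112 held 2 members, XR_002706768.1 with 50.7 to 64.7% of the gene and XR_002706769.1 with 35.3 to 49.3%, both highest in the support structures. In 2 pairs of members, XR_002707005.1 with XR_002707344.1 and XR_002706163.1 with XR_002707950.1, the counts were equal in all 48 libraries, so that each pair carries the information of a single transcript.

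Some members were low or high in the same replicate of most tissues. In 3 members (2.36%) and 47 coding models (0.769%) the same replicate lay at least 10-fold under the median of the 6 libraries in at least 5 of the 7 tissues other than the head. XR_002708070.1, the ninth of the 10 members with the highest CPM, had 0 to 1.58 CPM in replicate 6 over the 7 tissues, and 14.8 CPM or more in every other replicate of these tissues. In the head, whose replicate numbers pair with no other tissue, replicate 6 was the highest at 157.6 CPM. Head replicates 3, 4 and 5 were near 0, at 0.9696, 0 and 0.9241 CPM. XR_002707187.1 was at 0 in replicate 6 of all 7 tissues and of the head, against medians over the tissues of 37.9 to 175 CPM in the other replicates, and its tissues differed little (tau 0.065). XR_002707677.1, of the lncRNA gene LOC111425014, had at most 0.111 CPM in replicate 5 and 10.6 CPM or more in every other replicate of the 7 tissues, and in the head replicate 5 had 48.77 CPM.

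The reverse was seen in XR_002706883.1, the member just inside the threshold. In replicate 6 it ran from 9.35 to 44.5 CPM over the 7 tissues, and no library of replicates 1 to 5 of these tissues exceeded 0.269 CPM. The head libraries reached at most 1.169 CPM, in replicate 3. These 4 members were picked out after their values were seen. In the wing the median absolute log2 difference of members was 0.197 between columns paired as an animal and 0.414 between columns of different pairs. In coding models it was 0.141 and 0.275. In the carinated margin it was 0.228 and 0.436 in members and 0.195 and 0.321 in coding models. Both differences were larger in members than in coding models. The pairs were formed from columns that deviated together in these data. A smaller difference within pairs was thus favoured by the pairing, and nothing is read from it.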

How the data were processed

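Per the labels' protocols, RNA came from the RNeasy Plus Micro kit and libraries from the TruSeq Stranded mRNA kit. The submitters' processing notes list DESeq2, RSEM 1.3.0, Bowtie2 2.3.2 and Trimmomatic 0.32 without their roles. Strand setting, annotation release and genome build were not given in the sources used here. As data the authors deposited 1 table of expected counts for 23725 RefSeq transcripts in 60 columns, and 29.71% of its values lay over 0.001 from a whole number. Expected counts divide reads between similar models, so reads of near-identical or overlapping transcripts cannot be separated with certainty.

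Columns of the T2 wing and of the carinated margin carry no side. Column k deviated together with column k+6 (r = 0.1239 to 0.2688 in the wing, 0.1193 to 0.1947 in the carinated margin, and each of the 12 best with its partner), and these pairs were summed. Same-numbered libraries also deviated together in all 21 pairs of tissues without the head (r = 0.1655 to 0.3295), but not with the head (r = -0.03884 to -0.01624), so replicate numbers pair 7 tissues. The pairing comes from the data and not from the labels.

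Expected counts were rounded. Transcripts were kept by filterByExpr (minimum count 10, minimum total 15), scaled by TMM and tested by quasi-likelihood in edgeR 4.0.16 (R 4.3.3, limma 3.58.1). The model held the 48 libraries together and had no term but tissue, with Benjamini-Hochberg adjustment over all 15239 transcripts tested and a threshold of 0.05. Isoform shares were tested with diffSpliceDGE of edgeR over 4694 transcripts. The fit was also run on simulated counts of independent libraries with the same spread setting for all transcripts. The real data differ in both, so nothing about the members is read from the simulation. A transcript without counts in a tissue was compared with 3 counts over its 6 libraries. Such floors and the 95% intervals reflect counting error alone, as molecular identifiers are not described. Alternatives were RLE factors, total counts, no filter, DESeq2 1.42.0, a replicate block, only columns 1 to 6 or 7 to 12 of the wing and carinated margin, and each replicate left out.

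Members and lists were chosen with earlier results of these data known. Of the 50 differences in level picked by the rule for naming 37 concern members that reach 10 CPM in a tissue outside the pair. The other 13 do not, and no p is printed for them. The rule took the 10 members with the highest level and the 5 largest rises and falls without overlap in each comparison. It also took the 5 highest and 5 lowest tau, the 2 nearest the threshold on either side, and called isoform shares. Not all of these are printed. Others named are said to be picked after their values were seen, or stand as examples of a group. Gene symbols, gene types and neighbours, and no coordinates, were read from the RefSeq table for IU_Otau_3.0.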

Additional observations from a re-analysis of the deposited data

Results flagged for a closer look

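In 104 groups of 6 libraries examined for the most abundant and the differing members, 12 had a library standing apart from the other 5 by Dixon's criterion, and over all members 117 of 1016 groups did (11.5%). For independent values with a normal spread the criterion gives about 1 in 20. The groups here share replicates and hold transcripts that vary together, so no excess is read from these numbers. Replicate 1 accounted for 33 of the 117.

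In the anterior margin, replicate 1 stood above the others in 4 of the 5 transcripts made up of the rRNA model and those that vary with it, at 15600 CPM for XR_002707008.1, 13800 CPM for XR_002707011.1, 9310 CPM for XR_002707260.1 and 442 CPM for XR_002707268.1. In the carinated margin, replicate 1 stood above the others at 10300 CPM for XR_002707008.1, 9670 CPM for XR_002707011.1, 2730 CPM for XR_002707010.1 and 304 CPM for XR_002707268.1. Its share of all counts was 3.11% for the 5 transcripts and 3.35% for all 127 members, against medians of 1.36% and 1.64% in that tissue. The same transcripts vary together, so these 10 values are not separate events.

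In the posterior margin, replicate 1 reached 6.08 CPM for XR_002707547.1, against a median of 0.8779 CPM. In the dorsal prothorax, replicate 5 reached 234 CPM for XR_002706382.1, against a median of 34.54 CPM.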

How the results depend on the processing

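The number of members was 213 with a threshold of 5 CPM and 69 with 20 CPM. It was 126 with TMM-scaled CPM, 131 with the rRNA model and the 4 that vary with it left out of the totals, an alternative chosen after seeing the data, and 125 to 131 without each replicate in turn. Counts of members called in the 5 comparisons and between any tissues stayed within 1.5 times the reported count under every alternative run, except for 89 in the horn against the dorsal prothorax with total counts. Total counts moved the median log2 difference of all transcripts to -1.277 there, from -0.178, and to -1.093 from -0.128 in the horn against the wing. Without each replicate in turn members with a changed isoform share numbered 0 to 1 for horn against dorsal prothorax, 1 to 2 for horn against wing, and 0 for wing against dorsal prothorax. The cause was not tested. With the replicate block in the 7 paired tissues 79, 72, 81 and 76 members were called in the horn, wing, horn against wing and support structure comparisons, 110 between any tissues, and 2, 0 and 2 for isoform share, so the block moved no count by over 1.5 times. Without the head and without a block, an alternative chosen after seeing the data, these counts were 59, 50, 61, 63 and 87. Of 680 values for the 50 differences in level named for lack of overlap 673 kept direction and side of the threshold, 0 reversed, and 7 lost the threshold, all of XR_002707677.1 in the head. The 50 were picked as the largest called differences of these data, so these numbers are a description and lend them no support. Of the 50, 13 concern members without 10 CPM outside the pair, and their side of the threshold carries no test. The depth of 13.11 to 21.41 M (mega-counts) in 5 tissues limits the levels near 0.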
